A study of Mus musculus with 8 samples.

Results

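The transforming growth factor beta (TGF-beta), activin and bone morphogenetic protein (BMP) genes were examined in mouse tumours grown from 4T1 cells, a mammary carcinoma line. The members are 42 listed genes, found on the array through the RefSeq accession of each probe. All 42 had a probe, 59 probes in total, among 20145 named genes on the array. Of the 42, 41 passed the filter on dim probes, which asked for 4 or more of the 8 arrays to be well above background. The pseudoreceptor gene Bambi did not pass, with 0 of 8 arrays well above background.

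Before injection the 4T1 cells of both groups were exposed to adenovirus for 24 h at a multiplicity of infection of 50. The control group received an empty virus, and the other group Adenoviral-PRH, a virus carrying PRH, the homeodomain transcription factor encoded by Hhex. The cells were placed in the no. 3 fat pad of female BALB/C mice of 6 to 8 weeks, and tumours were taken on day 22. Each group holds 4 arrays, with mouse numbers 1, 2, 3 and 5. The virus was given before injection, and whether the delivered gene was still present on day 22 was not tested. The labels disagree on the material, tumour RNA in the design text and endothelial isolates in the extraction protocol.

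Ligands of this family are secreted dimers that bring together type I and type II receptor kinases at the cell surface. TGF-beta and activin receptors phosphorylate Smad2 and Smad3, BMP receptors act through other Smads, and both arms share Smad4. Latent TGF-beta binding proteins hold TGF-beta in the matrix, secreted antagonists such as noggin, chordin and follistatin trap BMPs or activins, and Smad6 and Smad7 damp the signal inside the cell. In mammary carcinoma the TGF-beta arm is known for restraining growth early and for favouring invasion later.

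Values are log2 of the spot signal relative to the 75th percentile of the same array, so a value of 0 is the brightness of that percentile and a difference of 1 is a doubling of the scaled signal. Precision is limited by having 4 arrays a group. The 75th percentile lay between 1003 and 1283 intensity units on control arrays and between 679.1 and 761.6 on PRH arrays. Probes well above background made up 64.17% to 69.76% on control arrays and 72.22% to 73.9% on PRH arrays, so detection also differed by group. All arrays lay on 1 slide from 1 scan. The first position coordinate on it split exactly as the groups do, so that coordinate and group cannot be told apart. The other coordinate ran from 1 to 4 in both groups in the order of the mouse numbers, so same-numbered arrays shared it. Hhex itself was lower on the arrays labelled PRH, at -0.54, -0.33, -0.69 and -0.78 in control against -1.71, -1.46, -1.79 and -1.72 (difference -1.09, SE 0.149, adjusted p = 0.00686). The group is therefore called PRH-labelled, and each direction below is that of the label. Markers of both named materials were measured, with 7 of 7 epithelial and 7 of 8 endothelial markers past the filter. The filter asks only for detection, so these counts cannot tell the materials apart. Summed epithelial signal, in multiples of the array's 75th percentile, was 290 to 359 in control and 369 to 450 in PRH-labelled tumours. Summed endothelial signal was 8.24 to 21.1 and 20.6 to 27.2. Which material was used was not tested. P-values measure the spread between these samples, and the labels do not say whether samples with 1 mouse number share an animal.

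Of the 41 tested members, 3 were higher and 5 were lower in PRH-labelled tumours (adjusted p under 0.05). Higher were Chrd, which encodes the BMP antagonist chordin, Bmp1, a metalloproteinase gene, and Acvr2b, a type II activin receptor gene. Lower were the receptor genes Tgfbr2, Tgfbr3 and Acvr2a, the shared mediator gene Smad4 and the inhibitory Smad7. These calls come from a model with group alone, which leaves out the mouse number. With the mouse number as a block, Tgfbr2 and Acvr2a were lost and Nog was gained, for 4 higher and 3 lower. Over all 34543 items the block called 9283 higher and 2949 lower. With group alone, called members were 19.5% of those tested, below the 25.9% of all 34543 tested items and the 23.4% of the 16377 named genes among them. By direction, 17.2% of items and 10.6% of named genes were called higher, and 8.67% and 12.9% were called lower. The share called among the members was thus not above that of the array. Their median difference was -0.05, against 0.29 over all items, a gap of -0.34. The groups did not overlap for 10 members of 41, against 31.4% of items. All items include unnamed probes, whereas the members are named genes. The median and the overlap share were not taken over named genes alone, so these gaps may partly be between named and unnamed probes.

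Promoter sequence is shown for the called members that the RefSeq table (GRCm38.p6) holds, because 2 of them are sister receptor genes that moved in opposite directions. Each line gives the 250 bases before the annotated start, 5′ to 3′ on the gene's strand. Capitals mark the Smad box CAGAC, or GTCTG on the other strand, and the palindrome GGCGCC, an element of BMP-responsive promoters.
Acvr2a, chr2:48813859-48814108, plus strand: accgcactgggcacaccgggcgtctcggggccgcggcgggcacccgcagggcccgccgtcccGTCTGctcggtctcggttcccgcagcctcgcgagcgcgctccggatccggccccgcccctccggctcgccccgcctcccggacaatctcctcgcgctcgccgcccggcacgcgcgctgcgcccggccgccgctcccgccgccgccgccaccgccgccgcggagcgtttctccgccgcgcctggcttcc
Acvr2b, chr9:119401928-119402177, plus strand: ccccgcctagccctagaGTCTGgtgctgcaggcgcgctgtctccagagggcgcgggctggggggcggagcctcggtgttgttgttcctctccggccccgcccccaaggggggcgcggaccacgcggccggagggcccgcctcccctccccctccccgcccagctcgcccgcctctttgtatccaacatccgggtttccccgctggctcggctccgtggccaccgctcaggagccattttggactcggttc
Tgfbr2, chr9:116175364-116175613, minus strand: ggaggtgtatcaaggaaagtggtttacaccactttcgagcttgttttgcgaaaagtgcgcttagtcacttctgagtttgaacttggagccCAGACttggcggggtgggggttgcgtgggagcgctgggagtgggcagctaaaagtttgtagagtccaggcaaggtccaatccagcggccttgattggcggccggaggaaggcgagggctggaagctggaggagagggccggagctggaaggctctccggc
Chrd, chr16:20732877-20733126, plus strand: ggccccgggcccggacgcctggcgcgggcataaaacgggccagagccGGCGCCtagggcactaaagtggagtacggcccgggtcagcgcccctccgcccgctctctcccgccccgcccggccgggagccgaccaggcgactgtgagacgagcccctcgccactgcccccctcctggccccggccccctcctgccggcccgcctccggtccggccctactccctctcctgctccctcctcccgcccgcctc
The 3 receptor promoters each hold 1 Smad box, at -188 for Acvr2a, -233 for Acvr2b and -160 for Tgfbr2, counted in bases from the annotated start. Chrd holds no Smad box and has GGCGCC at -203. The Smad box was found in 42.2% of all 32851 such windows and GGCGCC in 9.59%. Over the 38 windows of the 28 members in the table the shares were 50% and 21.1%. TAAT, or ATTA on the other strand, the core that many homeodomain proteins bind, was in 54.9% of all windows, in 26.3% of the members' windows and in 0 of the 4 shown. A match describes letters alone, and the lower Acvr2a and the higher Acvr2b carry the same box.

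**Figure D1:**
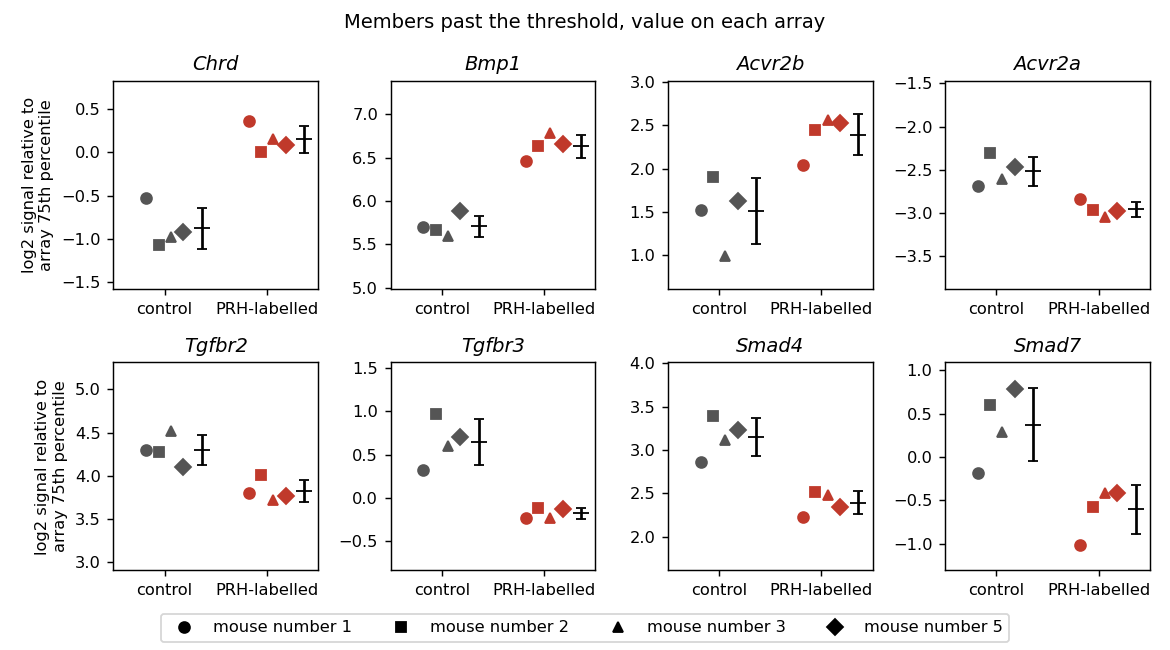
Log2 signal relative to the array's 75th percentile (y axis) for the 8 members past the threshold, by group (x axis); each point is 1 array, its shape is the mouse number, and the bar beside each group is the mean with its SD (n = 4). In each of the 8 panels, all with axes of the same height, the 4 control and the 4 PRH-labelled points do not overlap.

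Among the secreted ligands 0 of 9 passed with limma and 1 of 9 had an unadjusted p under 0.05, with differences from -0.44 to 0.65 (median 0.20). Tgfb1, a broadly expressed TGF-beta ligand, read 2.68, 2.72, 2.63 and 2.60 in control and 2.72, 2.82, 2.69 and 2.71 in PRH-labelled tumours. It was among the steadiest members, with an SD of 0.05 and 0.06 in the groups, which overlapped (difference 0.08, SE 0.109, adjusted p = 0.621). Tgfb3, the third TGF-beta isoform gene, read 3.48, 4.05, 3.11 and 3.63 in control and 3.94, 4.22, 4.39 and 4.16 in PRH-labelled tumours. Control 2 lay inside the PRH-labelled range, and the difference of 0.61 (SE 0.217) had an adjusted p of 0.0771, or 0.0391 without control 2. No other fit without 1 array called Tgfb3 (adjusted p up to 0.151). Tgfb2, the remaining isoform gene, differed by 0.20 (SE 0.257, adjusted p = 0.587), and its dimmer probe stood at the opposite sign (-0.46, adjusted p = 0.27).

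The activin subunit genes did not pass either. Inhba, which encodes the subunit of activin A, read 3.72, 4.35, 3.65 and 4.08 in control and 4.27, 4.04, 3.92 and 4.45 in PRH-labelled tumours (difference 0.21, SE 0.207). Inhbb, which encodes that of activin B, was uneven among controls, at 2.08, 3.22, 1.28 and 2.97, against 2.51, 2.65, 3.19 and 2.81 (difference 0.40, SE 0.424). Bmp2, a BMP ligand gene, was the least even ligand in control, with values of -1.62, 0.84, -2.05 and -0.64 and an SD of 1.28, while the PRH-labelled arrays held between -0.56 and 0.01. Bmp4, its close relative, ran from -2.95 on control 3 to -0.24 on control 2 and between -2.01 and -1.49 in PRH-labelled tumours. These spreads left differences of 0.65 (SE 0.585) for Bmp2 and -0.28 (SE 0.517) for Bmp4. Bmp7 differed by -0.44 (SE 0.282), and Bmp6 was dim, with 2 of 4 controls and 3 of 4 PRH-labelled arrays well above background.

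Bmp1 gave the smallest p of the 41 members. It encodes the metalloproteinase that trims procollagens and is not a ligand despite its name, and it is known to cleave chordin. Its brightest probe (A_55_P2006703) read 5.70, 5.66, 5.60 and 5.88 in control and 6.46, 6.63, 6.78 and 6.66 in PRH-labelled tumours. No array of one group came near the other, and the difference of 0.93 (SE 0.130, 1.9-fold) had an adjusted p of 0.00686. A probe for a noncoding transcript of the gene also rose, by 0.81 (SE 0.198, adjusted p = 0.022 in a fit of each probe), whereas the dimmest of the 3 probes, on the same coding accession as the brightest, stood at 0.03 (SE 0.154, adjusted p = 0.885). The mean of the 3 probes differed by 0.59 (adjusted p = 0.0218). After median centring Bmp1 did not pass (0.44, adjusted p = 0.067).

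The latent TGF-beta binding protein genes gave 0 calls of 4 with limma, and Ltbp1 alone had an unadjusted p under 0.05 (0.0273). Ltbp1 read 1.54 on control 1 and 2.99, 2.86 and 3.20 on the other controls, against 1.63, 1.73, 1.82 and 1.59 in PRH-labelled tumours. Control 1 thus lay below all PRH-labelled arrays and the other controls far above them (difference -0.96, SE 0.351, adjusted p = 0.0841). Without control 1 the difference was -1.32 and the adjusted p 0.00131. No other fit without 1 array called Ltbp1 (adjusted p up to 0.189). Leaving out control 1 also raised the called items from 8934 to 11467. Ltbp2 read 4.36, 5.25, 4.39 and 5.34 in control and 5.32 to 5.48 in PRH-labelled tumours, and controls 1 and 3 were the low ones (difference 0.55, SE 0.260, adjusted p = 0.161). Ltbp4 differed by 0.35 (SE 0.166, adjusted p = 0.165). The probes of Ltbp3 stood at opposite signs, -0.11 (adjusted p = 0.755) and 0.50 (adjusted p = 0.155 in the fit of each probe), so no direction is given for it.

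Chordin was the BMP antagonist that passed. Chrd (A_51_P215975) read -0.53, -1.07, -0.98 and -0.92 in control and 0.36, 0.00, 0.16 and 0.08 in PRH-labelled tumours. All 4 PRH-labelled arrays lay above all 4 controls, and the difference of 1.02 (SE 0.163, 2.03-fold, adjusted p = 0.0074) held in each of the 8 fits without 1 array. Nog, the noggin gene, had a fitted difference of the same size, 1.04, but a wide spread, with control values of -5.10, -3.54, -6.42 and -5.25 and PRH-labelled values of -4.51, -2.60, -4.85 and -4.20. It was well above background on 2 of 4 control arrays and did not pass (SE 0.691, adjusted p = 0.3). Blocking on the mouse number brought it past the threshold (adjusted p = 0.0178). Grem1, which encodes the BMP antagonist gremlin, read 0.38, 0.75, 1.11 and 1.85 in control and 1.89, 0.92, 1.45 and 1.81 in PRH-labelled tumours (difference 0.49, SE 0.355, adjusted p = 0.335).

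The follistatin-related genes gave no call and differences below 0. Fst, which encodes the activin trap follistatin, differed by -0.16 (SE 0.125, adjusted p = 0.38) with control values between 0.35 and 0.56. Fstl3, a second activin trap, read 1.21, 2.38, 2.13 and 2.23 in control and 1.42 to 1.70 in PRH-labelled tumours. As with Ltbp1, control 1 lay below the PRH-labelled arrays and the other controls above them (difference -0.39, SE 0.261, adjusted p = 0.3, and -0.65 with adjusted p = 0.00987 without control 1). No other fit without 1 array called Fstl3 (adjusted p up to 0.526). Fstl1, a secreted glycoprotein gene of the same family that is strong in mesenchymal cells, read 3.60, 3.92, 4.19 and 3.57 in control and 2.99, 3.11, 3.17 and 3.53 in PRH-labelled tumours. Its groups did not overlap, and it narrowly missed the threshold (difference -0.62, SE 0.195, adjusted p = 0.052). Without control 1 the adjusted p was 0.0408, and no other fit without 1 array called Fstl1 (adjusted p up to 0.126).

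Receptors held 4 of the 8 calls, with 3 lower and 1 higher of 9 tested, beside 8.67% of items and 12.9% of named genes called lower and 17.2% and 10.6% called higher. No test of that difference was made, and the members were chosen with earlier results of these data known. Tgfbr3, which encodes betaglycan, a co-receptor that presents TGF-beta ligands, read 0.33, 0.97, 0.60 and 0.71 in control and -0.23, -0.11, -0.23 and -0.13 in PRH-labelled tumours (A_65_P16059). The PRH-labelled arrays were tightly grouped (SD 0.06) below all controls, and the difference of -0.83 (SE 0.159, 1.78-fold, adjusted p = 0.0105) passed in all 8 fits without 1 array. Tgfbr2, the type II TGF-beta receptor gene, read 4.30, 4.27, 4.52 and 4.10 in control and 3.80, 4.01, 3.72 and 3.77 in PRH-labelled tumours (A_51_P450573, difference -0.47, SE 0.140, 1.39-fold, adjusted p = 0.0427). The call was lost on leaving out any single array other than control 1, with adjusted p up to 0.106 without PRH 5. Blocking on the mouse number also ended it (adjusted p = 0.0655), and its dimmer probe stood at 0.27 (adjusted p = 0.25), leaving a probe mean of -0.10 (0.622).

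Tgfbr1, the type I TGF-beta receptor gene, read 1.43, 2.20, 1.99 and 2.03 in control and 1.41, 1.65, 1.66 and 1.82 in PRH-labelled tumours by its brightest probe. Control 1 again sat with the PRH-labelled arrays (difference -0.27, SE 0.195, adjusted p = 0.33). A far dimmer probe of the gene was lower by -0.73 (SE 0.202, adjusted p = 0.0343 in the fit of each probe), at -3.29, -3.04, -2.65 and -3.30 against -3.92, -3.82, -4.01 and -3.43. Both probes thus had a negative sign, and only the dimmer of them passed.

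The pair of type II activin receptor genes moved in opposite directions. Acvr2b (A_55_P2012815) read 1.52, 1.90, 0.99 and 1.63 in control and 2.04, 2.45, 2.56 and 2.53 in PRH-labelled tumours, a rise of 0.88 (SE 0.224, 1.84-fold, adjusted p = 0.0254). Acvr2a (A_66_P113760) was much dimmer and read -2.69, -2.30, -2.61 and -2.47 in control and -2.84, -2.96, -3.05 and -2.97 in PRH-labelled tumours, a log2 difference of -0.44 (SE 0.135, adjusted p = 0.0493). The groups did not overlap for either gene. Taken within each array, which removes the array scaling, the Acvr2b value minus the Acvr2a value was 4.21, 4.20, 3.61 and 4.10 in control and 4.87, 5.40, 5.60 and 5.50 in PRH-labelled tumours. That within-array gap widened by 1.32. Its groups could not overlap, because neither gene's groups did and the 2 genes moved in opposite directions, so the gap adds no support to the 2 calls. Only the called Acvr2a probe entered it. The pair was picked after its values were seen, so no test is given.

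Both activin receptor calls had limits. Leaving out control 5 (adjusted p = 0.0549), PRH 2 (0.0646), PRH 3 (0.0608) or PRH 5 (0.0685) ended the call of Acvr2b, as did median centring (0.39, adjusted p = 0.279). Acvr2a was lost on leaving out any single array other than control 1, where the highest adjusted p was 0.119 (control 5 left out), and when blocking on the mouse number (adjusted p = 0.0732). Its dimmer probe did not pass (-0.15, adjusted p = 0.46), nor did the mean of both (-0.29, 0.144).

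The type I receptor genes of activins and BMPs did not pass. Acvr1, which encodes ALK2, differed by 0.15 (SE 0.161, adjusted p = 0.504), with 0.16 from its other probe. Acvr1b, which encodes the activin receptor ALK4, differed by -0.22 (SE 0.192, adjusted p = 0.415) from a dim probe. It was called lower under 4 other scalings. The authors' values gave -0.59 (adjusted p = 0.041), normexp -0.45 (0.0487), quantile normalization -0.71 (0.0294) and median centring -0.71 (0.034). Bmpr1a read 0.60, 1.54, 1.39 and 1.56 in control and 0.89 to 1.08 in PRH-labelled tumours, so control 1 was the lowest of the 8 arrays (difference -0.32, SE 0.230, adjusted p = 0.329, and 0.0115 without control 1). No other fit without 1 array called Bmpr1a (adjusted p up to 0.542). Bmpr1b was at the edge of detection, with 4 of 4 controls and 2 of 4 PRH-labelled arrays well above background (difference -0.17, SE 0.386).

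**Figure D2:**
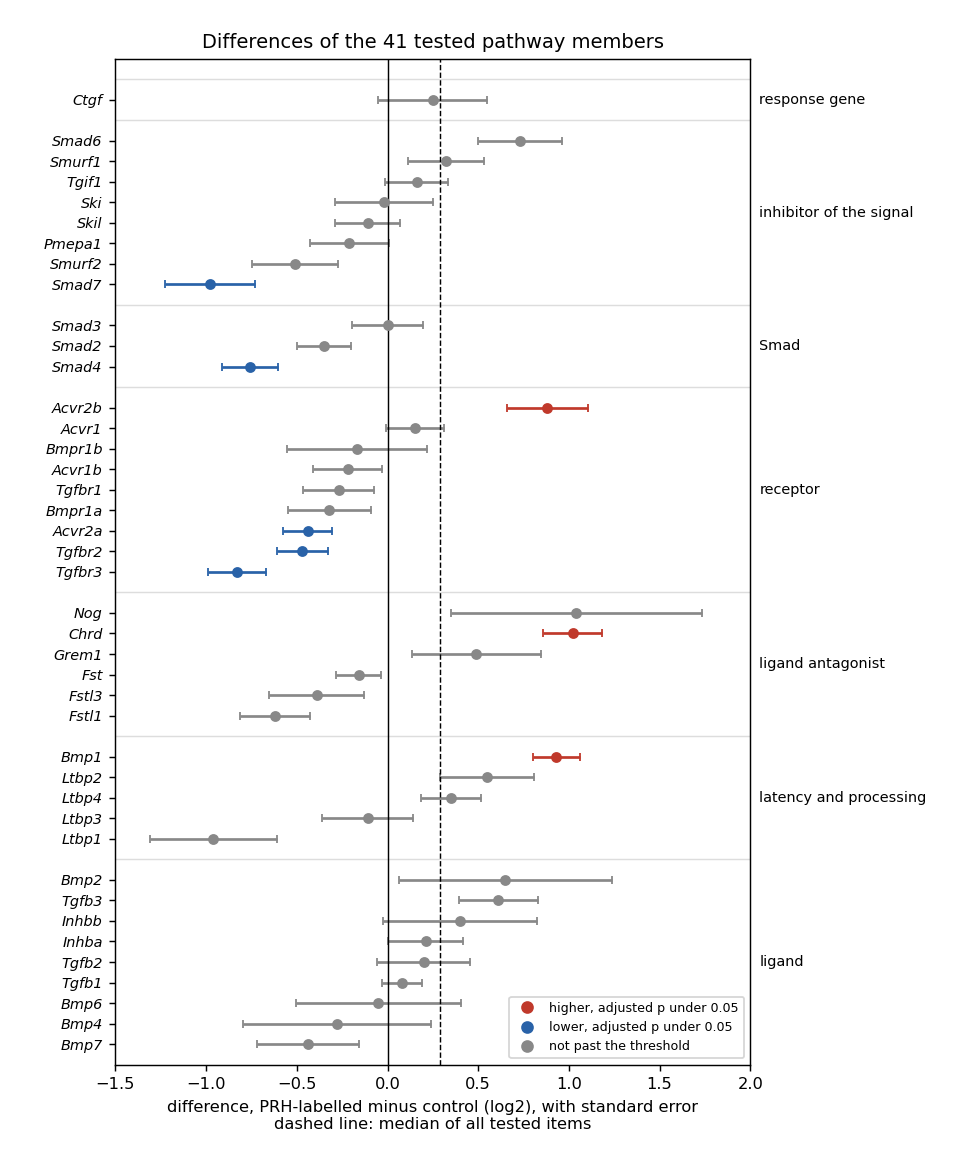
Difference between PRH-labelled and control tumours on the log2 scale (x axis) for the 41 tested members, grouped by role (y axis), with the standard error as bars; red and blue points passed the threshold higher and lower, grey points did not, and the dashed line is the median of all tested items, 0.29. The 3 higher calls are an antagonist, a proteinase and a receptor, and the 5 lower ones are 3 receptors, Smad4 and Smad7.

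Of the 3 signal-carrying Smad genes 1 was lower, beside 8.67% of items and 12.9% of named genes called lower. Smad4, the partner that TGF-beta and BMP Smads share, read 2.86, 3.39, 3.12 and 3.23 in control and 2.23, 2.52, 2.48 and 2.34 in PRH-labelled tumours (A_55_P2112617, difference -0.76, SE 0.155, 1.69-fold, adjusted p = 0.0125). The groups did not overlap, the call held in all 8 fits without 1 array, and the gene's other probe stood at -0.64 (adjusted p = 0.066 in the fit of each probe). Smad2, one of the Smads that TGF-beta and activin receptors activate, read -0.51, -0.32, 0.04 and -0.21 in control and -0.62, -0.55, -0.64 and -0.58 in PRH-labelled tumours, again without overlap. It did not pass (difference -0.35, SE 0.147, adjusted p = 0.121) but did without control 1 (adjusted p = 0.038) and under 4 other scalings. No other fit without 1 array called Smad2 (adjusted p up to 0.227). The authors' values gave -0.54 (adjusted p = 0.0241), normexp -0.52 (0.0194), quantile normalization -0.46 (0.0486) and median centring -0.84 (0.0203). Smad3, which acts alongside Smad2, had a mean of 3.67 in both groups (SE of the difference 0.197, adjusted p = 0.992), and its dim probe stood at -0.34 (adjusted p = 0.182). Within each array Smad3 minus Smad4 was 0.42, 0.65, 0.43 and 0.59 in control and 1.16, 1.28, 1.26 and 1.39 in PRH-labelled tumours, a gap wider by 0.75, given without a test since the pair was chosen from its values.

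The inhibitors of the signal gave 1 call among 8 tested, or 12.5%, below the 25.9% of items and 23.4% of named genes called. Smad7, which is induced by TGF-beta and blocks its receptor, read -0.18, 0.60, 0.29 and 0.78 in control and -1.01, -0.58, -0.41 and -0.41 in PRH-labelled tumours (A_51_P403636, difference -0.98, SE 0.248, 1.97-fold, adjusted p = 0.025). The lowest control, number 1, stayed above the highest PRH-labelled arrays. The call failed without control 2 (adjusted p = 0.0687), control 5 (0.0657), PRH 1 (0.064) or PRH 2 (0.059). Smad6, the inhibitory Smad of the BMP arm, stood the other way, at -2.39, -1.72, -2.66 and -2.16 in control and -1.86, -1.39, -1.25 and -1.49 in PRH-labelled tumours. Only control 2 reached into the PRH-labelled range, and the gene missed the threshold (difference 0.73, SE 0.234, adjusted p = 0.0545, and 0.0337 without control 2). No other fit without 1 array called Smad6 (adjusted p up to 0.122).

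Smurf2, a ubiquitin ligase gene that targets the receptors with Smad7, read 1.60, 2.46, 1.56 and 2.33 in control and 1.42 to 1.57 in PRH-labelled tumours (difference -0.51, SE 0.236, adjusted p = 0.152), with its other probes at -0.12 and -0.22. Controls 1 and 3 sat at the PRH-labelled level and controls 2 and 5 well above it. Its relative Smurf1 differed by 0.32 (SE 0.209, adjusted p = 0.287). The nuclear repressor genes Ski and Skil differed by -0.02 and -0.11 and Tgif1 by 0.16, none past the threshold. A dimmer Skil probe was lower, at -1.34, -1.03, -1.38 and -0.98 in control and -1.80, -1.72, -1.65 and -1.68 in PRH-labelled tumours (difference -0.53, SE 0.138, adjusted p = 0.027 in the fit of each probe). Pmepa1, a TGF-beta-induced inhibitor gene, read 2.62, 3.46, 2.85 and 3.41 in control and 2.65, 2.93, 2.94 and 2.96 in PRH-labelled tumours (difference -0.21, SE 0.220). Ctgf, a matrix protein gene that TGF-beta induces, read 4.19, 4.95, 3.86 and 4.92 in control and 4.45, 4.55, 4.72 and 5.20 in PRH-labelled tumours, and the groups overlapped (difference 0.25, SE 0.3, adjusted p = 0.555).

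The control arrays differed among themselves, in the members and in other genes. In 26 of the 41, controls 2 and 5 both read above controls 1 and 3, an ordering that 18.2% of all items had. Over all marker genes tested 18 of 61 had it, and 22 of the 90 tested pathway genes that are not members. By cell type it was seen in 5 of 7 epithelial, 4 of 7 endothelial, 3 of 7 keratinocyte and 3 of 5 skeletal muscle markers. Fibroblast (8), macrophage (5), T cell (5), neutrophil (4) and adipocyte (4) markers had it in 0. The part of this ordering in the members' values was not tested. In PRH-labelled tumours the same numbers stood in that order for 9 members. Control 2 held the highest control value for 22 members and control 5 for 12, and the lowest was on control 1 for 19 and on control 3 for 18. The median SD of the members was 0.38 in control and 0.18 in PRH-labelled tumours, and it was larger in control for 33 of 41, against 61.9% of all items. The shares of all items given here include unnamed probes. This ordering was seen in the values first and has no test.

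**Figure D3:**
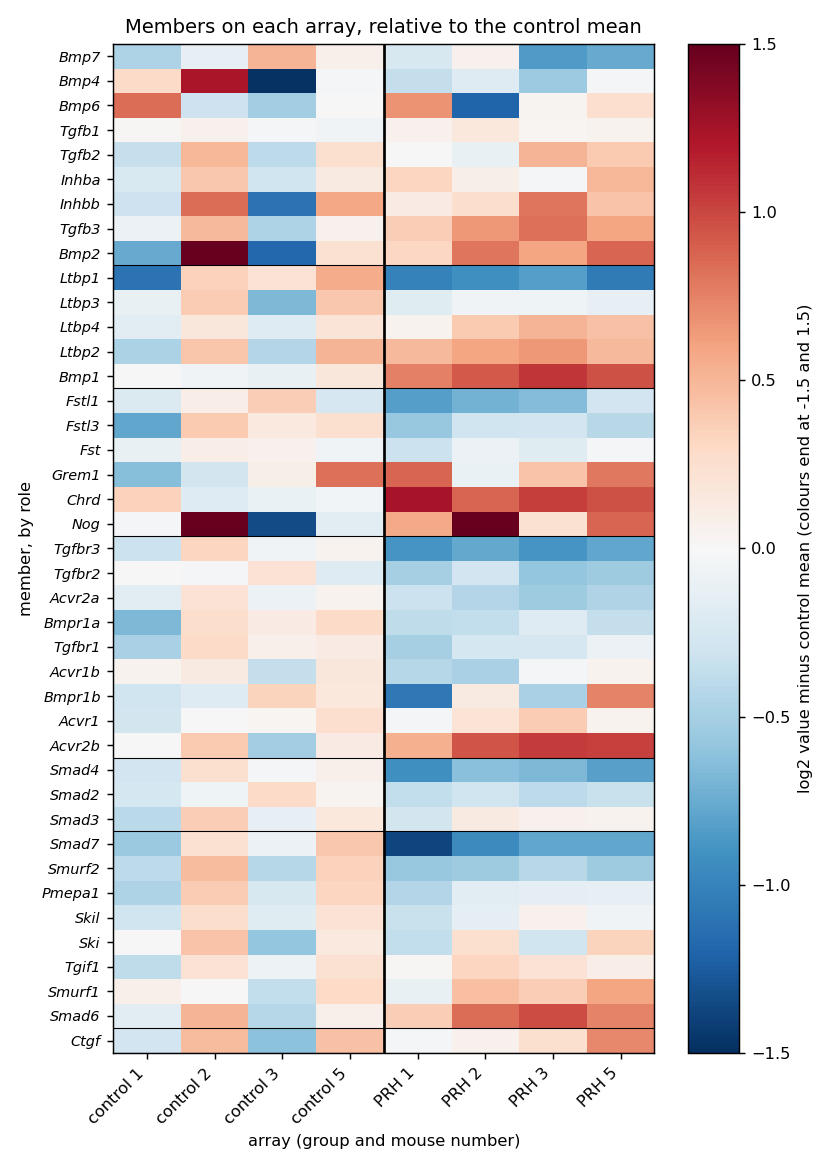
Value of each tested member (y axis, grouped by role) on each array (x axis), shown as the log2 difference from that gene's control mean; red is above it, blue below it, and colours end at -1.5 and 1.5. Among controls, numbers 2 and 5 are redder than 1 and 3 for 26 of the 41 members, and Chrd, Bmp1 and Acvr2b are red and Tgfbr3, Smad4 and Smad7 blue on all 4 PRH-labelled arrays.

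Other genes of the pathway were counted over 6 lists. Among 90 tested genes of these lists that are not members, 10 were higher and 14 lower, with a median difference of 0.01. The 24 calls are 26.7% of the 90, close to the 25.9% of items and 23.4% of named genes called. Receptor and Smad genes outside the members gave 2 higher and 2 lower of 9. Acvrl1, which encodes the endothelial type I receptor ALK1, was higher by 0.64 (SE 0.156, adjusted p = 0.0224), and Zfyve9, which encodes the Smad anchor SARA, by 0.56 (adjusted p = 0.0212). Neither passed after median centring, at 0.15 and 0.07 (adjusted p = 0.656 and 0.743), and of the 6 scalings Zfyve9 passed with the 75th percentile only. Acvrl1 was also lost without control 5, PRH 1, PRH 2 or PRH 3 (adjusted p up to 0.0647), and Zfyve9 without control 2, control 5, PRH 1, PRH 3 or PRH 5 (up to 0.0634). Tgfbrap1, a gene for a protein that associates with TGF-beta receptors, fell by 1.16 in log2 units (SE 0.217, adjusted p = 0.00982), and Zfyve16, which encodes the Smad-binding protein endofin, fell by 1.10 (SE 0.168, adjusted p = 0.00708).

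Ligand genes outside the members gave 4 higher and 1 lower of 18. These calls are 27.8% of the list, close to the 25.9% of items and 23.4% of named genes called. The median difference of the list was 0.62, against 0.29 over all items. That median depended on the array scaling. It was 0.49 with spike-in centring, 0.17 for quantile normalization, 0.13 after median centring, 0.08 in the authors' values and 0.06 with normexp. In the same order the median of all items was 0.16, 0.06, -0.20, 0.06 and 0.05. Blocking on the mouse number gave 8 higher and 0 lower, adding Nodal (1.13, adjusted p = 0.00979), Gdf3 (0.86, 0.0127), Bmp8b (1.27, 0.0109) and Bmp10 (1.07, 0.00973) and losing Gdf9. Over all 34543 items the block also raised the number called higher, from 5938 to 9283. Without the block, the added genes were called in 0 of the 5 scalings other than spike-in centring. Bmp10 was well above background on 1 of 4 controls and 3 of 4 PRH-labelled arrays, and Bmp8b on 3 of 4 controls. Bmp10 differed by 0.19 with normexp and 0.27 in the authors' values, both without the block. Gdf1, a ligand gene of the Nodal arm, was higher by 1.05 (SE 0.195, adjusted p = 0.00964), Bmp8a by 1.10 (adjusted p = 0.0204), Gdf7 by 1.00 (adjusted p = 0.0112) and the activin subunit gene Inhbe by 0.90 (adjusted p = 0.0245). Of these 4, Gdf1 alone was called in all 5 scalings other than spike-in centring. Inhbe was lost on leaving out any single array other than control 1 (adjusted p up to 0.0673, without PRH 1), and Bmp8a without control 3, PRH 3 or PRH 5 (up to 0.0573). The probes of these 4 were dim, with control means from -4.05 to -1.99. Gdf9, an oocyte ligand gene, was lower by -0.80 (adjusted p = 0.0418) and was lost on leaving out any single array (adjusted p up to 0.0895, without PRH 1) or blocking on the mouse number (0.0787).

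Of 18 activation and extracellular modulator genes 1 was higher and 3 were lower. These calls are 22.2% of the list, near the 25.9% of items and 23.4% of named genes called. Fbn1, whose fibrillin anchors latent TGF-beta in microfibrils, fell by 0.88 (SE 0.136, adjusted p = 0.0072), and Itgav, the integrin subunit that helps free TGF-beta from its latent form, by 0.65 (SE 0.174, adjusted p = 0.0305). Twsg1, a chordin-binding BMP modulator gene, fell by 1.14 (SE 0.309, adjusted p = 0.0312), and Rgma, a BMP co-receptor gene, was higher by 0.60 (SE 0.136, adjusted p = 0.0176), though not after median centring (0.11, adjusted p = 0.634). Itgav and Twsg1 were lost on leaving out any single array other than control 1, the highest adjusted p being 0.0833 (PRH 5 left out) and 0.0818 (control 5 left out). Itgav was lost too when blocking on the mouse number (adjusted p = 0.0551), and Rgma without control 2 (0.05) or PRH 1 (0.0511).

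Nuclear cofactors and Smad-modifying enzymes gave 5 lower of 12, which is a larger share than the 8.67% of items or 12.9% of named genes called lower, with no test of that difference. The list was chosen with earlier results of these data known, so its share cannot tell whether such genes were lower as a class. Ep300, which encodes the acetyltransferase p300, fell by 0.84 (SE 0.145, adjusted p = 0.00838), and Nedd4l, a ubiquitin ligase gene that acts on activated Smads, by 0.81 (SE 0.157, adjusted p = 0.0108). Zeb2, a Smad-binding repressor gene, fell by 1.02 (SE 0.206, adjusted p = 0.0123), and Usp15, a deubiquitinase gene that acts on the receptor complex, by 0.75 (SE 0.194, adjusted p = 0.0262). These falls were called under each of the 5 scalings other than spike-in centring. Usp15 was lost on leaving out any single array other than control 1, the highest adjusted p being 0.0713 (control 2 left out). The fifth lower gene, the phosphatase gene Ppm1a (-0.61, adjusted p = 0.0278), was lost in the same 7 fits (up to 0.0785, without control 5).

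Genes known to respond to TGF-beta gave 2 higher and 2 lower of 25. That is 16% of the list, below the 25.9% of items and 23.4% of named genes called. The median difference of the list was 0.00, against 0.29 over all items. Tagln, a smooth muscle actin-binding protein gene, rose by 0.91 (SE 0.230, adjusted p = 0.0249) and Sphk1, a sphingosine kinase gene, by 0.70 (SE 0.167, adjusted p = 0.0201), while the gelatinase gene Mmp2 fell by 1.22 (SE 0.286, adjusted p = 0.0192) and the lysyl oxidase gene Lox by 0.76 (SE 0.202, adjusted p = 0.0299). Tagln and Sphk1 did not pass after median centring (0.42 and 0.22, adjusted p = 0.222 and 0.441). Averaging a gene's 2 probes gave 0.43 for Sphk1 (adjusted p = 0.109) and -0.51 for Lox (0.0813). Tagln was lost without control 5, PRH 1, PRH 3 or PRH 5 (adjusted p up to 0.0642), and Sphk1 without control 2, PRH 2 or PRH 3 (up to 0.0579). Lox held only without control 1 or PRH 5 (otherwise up to 0.0751, without control 2), and Mmp2 was lost without PRH 1 (0.0509). Genes known to respond to BMPs gave 1 higher and 2 lower of 10, with Smad7 among the lower. That is 30% of this short list, near the same shares of items and named genes. Id2 fell by 0.78 (SE 0.178, adjusted p = 0.0178), and the homeobox gene Msx1 rose by 0.62 (SE 0.131, adjusted p = 0.0139), though not after median centring (0.13, adjusted p = 0.529). Id2 was lost without PRH 1 (0.0517) or PRH 5 (0.0507).

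**Figure D4:**
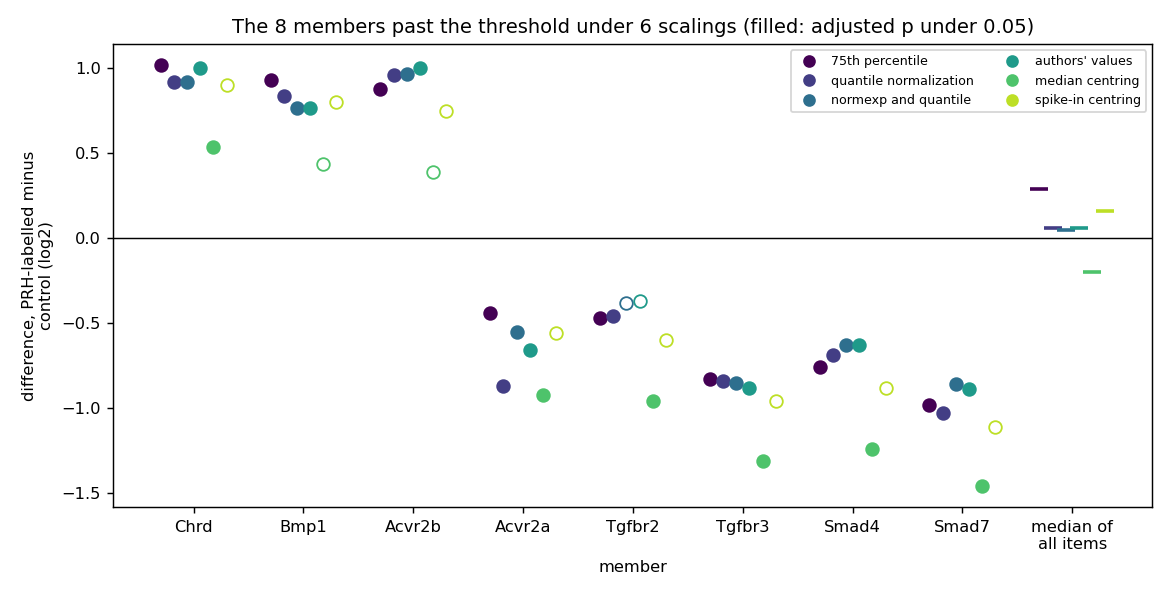
Difference between PRH-labelled and control tumours on the log2 scale (y axis) for the 8 called members (x axis) under 6 scalings of the arrays, each a colour; filled points passed (adjusted p under 0.05), open ones did not, and the dashes at the right are the median difference of all items. No member changes sign, and the median of all items moves from 0.29 with the 75th percentile to -0.20 after median centring.

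The array scaling set part of these calls. The median difference of all items was 0.29 with the 75th percentile, 0.16 with spike-in centring, -0.20 after median centring, 0.05 with normexp, 0.06 in the authors' values and 0.06 for quantile normalization. The median of the members minus that of all items was, in the same order, -0.34, -0.34, -0.34, -0.06, -0.10 and -0.20. The called items split into 5938 higher and 2996 lower with the 75th percentile, 2801 and 8044 after median centring, 3589 and 4566 with normexp, 3666 and 4392 in the authors' values, and 4144 and 4649 for quantile normalization. Chrd, Tgfbr3, Smad4, Smad7 and Acvr2a were called the same way in all 5 scalings other than spike-in centring. Bmp1 and Acvr2b missed after median centring, and Tgfbr2 with normexp (-0.38, adjusted p = 0.0989) and in the authors' values (-0.37, adjusted p = 0.116). Centring on 7 spike-in probes left 0 of 41 members called with limma, 3 with an unadjusted p under 0.05, and 1 of all 34543 items called.

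Single markers of other cell types were called in the same direction as some of these genes, while others of the same lists differed the other way. Over all 61 marker genes tested 13.1% were called, below the 25.9% of items and 23.4% of named genes. Of 8 fibroblast markers 2 were lower, Pdgfra by -0.73 (adjusted p = 0.012) and Pdgfrb by -0.66 (adjusted p = 0.0389), beside the lower Tgfbr2, Tgfbr3, Mmp2 and Fbn1. The uncalled fibroblast markers split, with Thy1, Col1a2 and Col1a1 at 0.29, 0.21 and 0.07 and Dcn, Lum and Fap at -0.60, -0.53 and -0.18. Summed over the 8, the signal was 256 to 331 in control and 277 to 332 in PRH-labelled tumours. These sums are in multiples of the array's 75th percentile, and all 8 markers were well above background on every array. Pdgfrb was lost on leaving out any single array other than control 1 (adjusted p up to 0.0993, without control 2). Of 7 endothelial markers tested 1 was higher, Kdr (1.17, adjusted p = 0.0248), beside Acvrl1, with sums of 8.24 to 21.1 and 20.6 to 27.2. The uncalled endothelial markers split too, with Cldn5, Pecam1 and Emcn at 0.98, 0.46 and 0.24 and Tek, Tie1 and Cdh5 at -0.52, -0.09 and -0.07. Of 7 epithelial markers 1 was higher, Krt18 (0.52, adjusted p = 0.0274). Krt8 alone of the 7 had a negative difference (-0.44, adjusted p = 0.0793), and its groups did not overlap. After median centring Krt8 was called lower (-0.92, adjusted p = 0.0144). The sum of the 7 did not overlap between groups, at 290 to 359 in control and 369 to 450 in PRH-labelled tumours. Krt18 was the brightest of them, with means of 7.6 and 8.13, and weighed most in that sum. Averaging the 2 probes of Kdr gave 0.34 (adjusted p = 0.287). Kdr held only without control 1 or PRH 3 (otherwise adjusted p up to 0.0685, without control 2), and Krt18 was lost without control 2 or any of 4 PRH-labelled arrays (up to 0.071). Of the 6 scalings Krt18 passed with the 75th percentile only, at 0.04 after median centring (adjusted p = 0.888), 0.19 in the authors' values (0.28), 0.17 with normexp (0.27) and 0.21 for quantile normalization (0.234). In smooth muscle and pericyte markers 0 of 5 passed with limma beside the higher Tagln, Rgs5 alone having an unadjusted p under 0.05 (0.0277), with sums of 15.3 to 28.6 and 24.7 to 36.2. Mrc1 (-1.16) was the 1 macrophage marker of 5 called, lower, while Csf1r, Adgre1, C1qa and C1qb stood between -0.06 and 0.12. Retnlg (-1.15) was the 1 neutrophil marker of 4 called, lower. S100a8 (0.13), S100a9 (0.50) and Mpo (-1.39) were not called and differed in sign. Higher were 1 of 7 keratinocyte markers (Krt14, 1.93) and 1 of 5 skeletal muscle markers (Mylpf, 1.31). Retnlg held only without control 3 or PRH 1 (otherwise adjusted p up to 0.0991, without PRH 5) and failed with normexp (0.0667) and in the authors' values (0.0766). Mrc1 was lost without control 2, PRH 2, PRH 3 or PRH 5 (up to 0.0701) and in the authors' values (0.0508), and Krt14 without PRH 1 (0.0516). The part of these markers in the differences was not tested, and in such bulk samples fewer cells of a type and less RNA per cell cannot be told apart.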

How the data were processed

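Per the file headers, the deposited spot intensities came from Agilent Feature Extraction 10.7.3.1 on a 1-colour array design placed on mm9. Version 9.1 is the one in the submitters' processing notes. The authors' normalized intensities were deposited too, linear, with background correction and offset unknown. The files hold no mean spot signal, so normexp (offset 50) used the median signal. Spots of a probe were averaged as log2, leaving out outlier spots where others remained, and scaled to the 75th percentile of non-control spots. A probe was tested if well above background on at least 4 arrays, the brightest probe standing for its gene. Symbols came from RefSeq accessions through a GRCm38.p6 table. Groups were compared over 34543 items with limma 3.58.1 in R 4.3.3 (lmFit, eBayes, two-sided, Benjamini-Hochberg, threshold 0.05), group alone in the model. The script was tested on simulated data.

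Named are all members, any probe of a member with another sign or call, Hhex, and up to 4 called genes a direction of each further list. Members and lists were chosen with earlier results of these data known. Deviations of same-numbered arrays from their group means correlated at 0.203, 0.436, 0.665 and 0.274, so by the rule set the mouse numbers pair the arrays. Same-numbered arrays also shared a slide coordinate, so mouse number and that coordinate cannot be told apart. The main fit leaves out this pairing, and the block is given as an alternative. Other alternatives were 5 scalings, 2 filters, the probe mean, each array left out and, added after the data were seen, each probe fitted singly.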

Additional observations from a re-analysis of the deposited data

Results flagged for a closer look

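Dixon's test of the 4 values in each group was run for the 41 members, 82 groups in all, and marked 2 of them. Pmepa1 on PRH 1, at 2.65, lay apart below the other PRH-labelled arrays, with a gap of 0.924 of the group's range. Bmpr1a on PRH 3, at 1.08, lay apart above the others, with a gap of 0.835 of the range. Chance marks about 1 in 20 groups. Neither gene passed in the comparison.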

How the results depend on the processing

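Read by its brightest probe or its probe mean, each of the 8 called members kept its direction under all alternatives, while the second Tgfbr2 probe read 0.27 against -0.47. Counts of called members (8) and called items (8934) moved by over 1.5 times with spike-in centring, to 0 members and 1 item. Without single arrays, called members ranged from 4 (without control 5 or PRH 2) to 13 (without control 1), with 5 without PRH 1, PRH 3 or PRH 5. The 5 gained without control 1 were Ltbp1, Smad2, Bmpr1a, Fstl1 and Fstl3. Called items lay between 5733, on leaving out PRH 1, and 11467, on leaving out control 1. Leaving out control 2 gave 5828, control 5 gave 5774 and PRH 5 gave 5983. The median of the members moved from -0.05 to -0.54 after median centring, which also called 11 members lower and 1 higher, and 8044 items lower and 2801 higher against 2996 and 5938. Quantile normalization gave 8 lower and 3 higher members, normexp and the authors' values 6 and 3 each. With the mouse number as a replicate block, 7 members passed, 3 lower and 4 higher, Tgfbr2 and Acvr2a being lost and Nog gained, and 9283 items were higher and 2949 lower. Among further pathway genes the block lost Gdf9 and Itgav and gained Nodal, Gdf3, Bmp8b and Bmp10, all higher. Without the filter 6 members passed, and 6 also when probes were averaged per gene, both without Tgfbr2 and Acvr2a, and requiring all 8 arrays above background gave 10, with Smad6 and Fstl1 added. Fitting each probe singly and reading each gene's brightest probe called the same 8, and dimmer probes of Tgfbr1 and Skil passed besides. Of the 33 uncalled members, 9 changed sign after median centring, and 1 or 2 under each other scaling. Dim probes set a limit for Bmp6, Nog, Bmpr1b and Bambi. The cause of these changes was not tested.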
